A study of Mus musculus with 3 samples.

Results

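Adrenergic receptors are the cell surface receptors for adrenaline and noradrenaline. The genes described here are Adra1a, Adra1b, Adra1d, Adra2a, Adra2b, Adra2c, Adrb1 and Adrb3, 8 of the 18038 genes of the deposited table, chosen by gene symbol. They were measured by RNA sequencing in whole hearts taken at postnatal day 9 from C57BL/6J mice of wild-type genotype, and no treatment is named. The 3 hearts form the only group, so comparisons were made between genes within a heart and of the spread between hearts. The numbers of hearts 1, 2 and 3 are those of the labelled replicates. Sex and litter are not labelled, so a p-value here covers no more than the differences among these samples, whose origin may be technical.

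Receptors of this family are G protein-coupled. The alpha-1 receptors act mainly through Gq proteins and phospholipase C, the alpha-2 receptors through Gi proteins, which restrain adenylyl cyclase, and the beta receptors through Gs proteins, which stimulate it and so raise cyclic AMP. In the heart the beta-1 receptor is the main route by which sympathetic nerves raise the rate and force of contraction.

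The receptor genes are related in sequence, which matters for assigning reads to them. The coding stretch below is shown because it holds the most familiar shared element of the family, the codons for aspartate, arginine and tyrosine at the inner end of the third membrane helix. These codons are in capitals. Each stretch has 45 bases, runs 5′ to 3′ and was taken from the GENCODE M21 transcript with the longest coding sequence, on GRCm38.
Adra1a: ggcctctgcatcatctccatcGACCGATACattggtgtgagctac
Adra1b: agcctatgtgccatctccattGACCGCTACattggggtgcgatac
Adra1d: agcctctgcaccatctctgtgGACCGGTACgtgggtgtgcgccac
Adra2a: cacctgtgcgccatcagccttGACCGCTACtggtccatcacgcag
Adra2b: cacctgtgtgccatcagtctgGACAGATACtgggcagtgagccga
Adra2c: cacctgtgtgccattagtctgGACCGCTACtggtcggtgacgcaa
Adrb1: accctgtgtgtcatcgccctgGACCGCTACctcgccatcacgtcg
Adrb3: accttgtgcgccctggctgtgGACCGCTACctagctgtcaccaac

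The stretches lie in coding exons. That of Adra1a is at chr14:66637923-66637967 on the plus strand (exon 2 of 4), that of Adra1b at chr11:43835642-43835686 on the minus strand (exon 4 of 5) and that of Adra1d at chr2:131561587-131561631 on the minus strand (exon 1 of 2). Those of the alpha-2 genes are in single-exon transcripts, Adra2a at chr19:54046626-54046670, Adra2b at chr2:127363883-127363927 and Adra2c at chr5:35280306-35280350, each on the plus strand. That of Adrb1 is at chr19:56722813-56722857 on the plus strand, also in a transcript of 1 exon, and that of Adrb3 at chr8:27228006-27228050 on the minus strand (exon 1 of 2). Within a class (alpha-1, alpha-2 or beta) the stretches differed at 8 to 14 of the 45 bases, and between classes at 13 to 23.

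Over whole coding sequences, aligned bases were identical at 67.5% to 74.8% in the 7 pairs within a class (median 69.0%) and at 62.2% to 68.3% in the 21 pairs between classes (median 64.1%). The most alike were Adra2a and Adra2c at 74.8%. The longest run of identical bases shared by transcripts of any 2 of these genes was 30 bases, between Adrb1 and Adrb3. In the count columns all 8 genes had whole numbers in every heart, without fractional shares of reads. Antisense genes overlap exons of Adra1d (Gm14285) and Adrb3 (Gm45470), and 5.35% and 19.2% of the 50-base words of these receptors' transcripts occur in other genes on either strand. The strand setting of the counting is not given in the sources used here. Reads from the overlapping stretches therefore cannot be assigned with certainty to either gene of a pair.

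**Figure D1:**
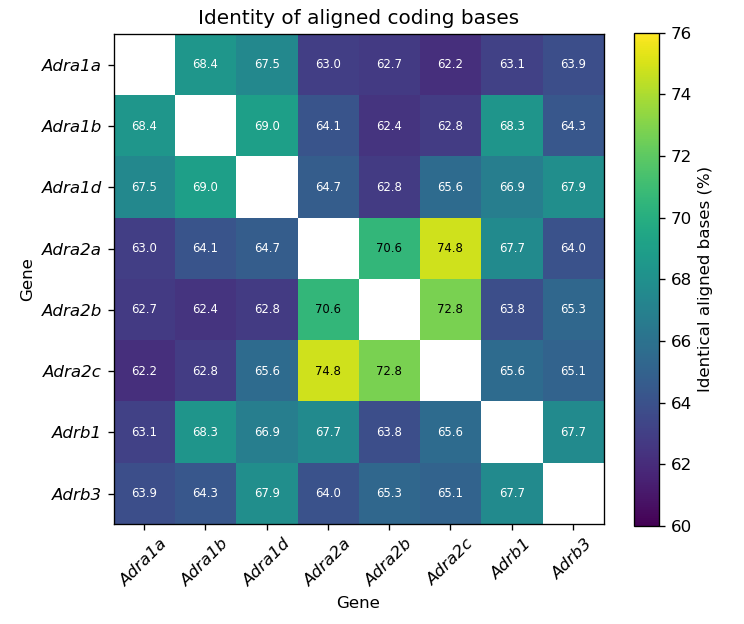
Percent of identical bases among aligned coding bases for each pair of receptor genes, both axes listing the genes; colour runs from 60% to 76%. The block of alpha-2 genes stands highest, with 74.8% between Adra2a and Adra2c.

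Library totals ranged from 17766501 to 18768094 counts. Levels are given as TPM, which are scaled by gene length and sum to 1000000 in each heart. A gene was called detected if each heart had at least 1 CPM (a count per 1000000 counts, not scaled by length), which held for 12958 of 18038 genes. The labelled tissue was borne out by cardiomyocyte genes, of which 6 of 6 listed were detected, with Tnnt2 highest at 12909.9 ± 1549 TPM (SD, n = 3 throughout). Heart 1 stood apart by its airway genes: 7 lung and airway markers summed to 1621 TPM there, 3.50 in heart 2 and 9.82 in heart 3, most of it in heart 1 from Scgb1a1 (1202 TPM) and Scgb3a2 (410.9 TPM). Of these 7 markers 1 (Ager) was detected, at 4.95, 2.76 and 3.36 TPM in hearts 1, 2 and 3. Sftpc had 4 counts in heart 1 and 0 in hearts 2 and 3, and Sftpa1 and Sftpb had 12 counts each in heart 1. For the receptors that were highest in heart 1, the mean of the 2 other hearts is given as well.

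Adra1b and Adrb1 made up nearly all of the receptor transcripts measured here. Together they held 92.3%, 91.5% and 87.1% of the summed TPM of the 8 genes in hearts 1, 2 and 3. Of the 8 genes, 4 were detected (Adra1b, Adrb1, Adra1d and Adra1a), against a background of 71.8% of all genes. The 4 others, Adrb3 and the 3 alpha-2 genes, fell below 1 CPM in at least 1 heart. The median level of the 8 genes was 0.976 TPM, compared with 9.41 TPM over all genes. In whole hearts, fewer cells of a type and less RNA per cell cannot be told apart.

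Among the alpha-1 genes, Adra1b, whose product couples noradrenaline to Gq in heart muscle, was at 49.4 TPM in heart 1, 35.2 in heart 2 and 26.0 in heart 3, from 1409, 1035 and 796 counts. Its mean was 36.9 ± 11.8 TPM (30.6 without heart 1), higher than 78.0% of genes in the table. Heart 1 was the highest and heart 3 the lowest. The gene (gene ID 11548) spans 43774606 to 43901210 on the minus strand of chromosome 11.

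Adra1d, known for its part in the contraction of large arteries, was at 2.95, 3.16 and 4.50 TPM, from 62, 68 and 101 counts, with a mean of 3.54 ± 0.842 TPM. Heart 3 was highest, unlike for Adra1b. The 7 smooth muscle and pericyte markers, all detected (71.8% of all genes were), summed to 850.3, 1417 and 1668 TPM in hearts 1, 2 and 3. That is the same order of hearts. Single markers differed: Acta2 (303.0, 670.5 and 917.8 TPM), Myh11, Cnn1, Tagln and Kcnj8 had that order. Rgs5 was highest in heart 2, and Abcc9 was lowest in heart 3. The part of these markers in the Adra1d values was not tested. The gene (gene ID 11550) spans 131545850 to 131562283 on the minus strand of chromosome 2.

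Adra1a, the other alpha-1 receptor of heart muscle, was at 1.86, 1.22 and 1.02 TPM, with a mean of 1.37 ± 0.435 TPM (1.12 without heart 1). It had more counts than Adra1d (184, 120 and 112), and the gene length implied by the authors' counts and FPKM was 10890.3 bases for Adra1a and 2309.7 for Adra1d. The longest GENCODE transcript of Adra1a has 4282 bases, so its length-scaled level depends on which transcripts the authors used. The gene (gene ID 11549) spans 66635251 to 66771168 on the plus strand of chromosome 14. Heart 1 was highest for Adra1a and for Adra1b, and the 6 cardiomyocyte markers summed to 33947, 30524 and 30155 TPM, also highest in heart 1. Single markers differed: Tnnt2, Myh6 and Pln were highest in heart 1, Ryr2 and Ttn in heart 2 and Actn2 in heart 3. Their part in these values was not tested.

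The alpha-2 genes were all low, with 21 counts or fewer in any heart. A count of 0 allows up to 3 counts, a floor of 0.0799 to 0.0853 TPM for Adra2b, which lay above it in each heart. Intervals and floors of this kind cover counting error only. Adra2b, expressed in blood vessels among other places, had 12, 21 and 17 counts, or 0.459 ± 0.115 TPM. Adra2a and Adra2c, best known as the receptors by which sympathetic nerve endings sense and limit their own noradrenaline release, had 18, 1 and 7 counts and 3, 1 and 5 counts. Their means were 0.247 ± 0.258 and 0.104 ± 0.0672 TPM. Without heart 1 the mean of Adra2a was 0.107 TPM, and without heart 3 that of Adra2c was 0.0689 TPM. Only heart 1 held more than 7 counts of Adra2a, and no heart held more than 5 of Adra2c. FPKM were deposited to 2 decimals, so the TPM of these genes are coarse. Adra2a (gene ID 11551) spans 54044151 to 54048982 on chromosome 19, Adra2b (11552) spans 127363208 to 127367221 on chromosome 2 and Adra2c (11553) spans 35278319 to 35281763 on chromosome 5, all on the plus strand.

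Summed alpha-1 transcripts exceeded summed alpha-2 transcripts in each heart, with log2 ratios of 5.79, 5.95 and 5.28 (mean 5.67 ± 0.351, or 5.61 without heart 1). The sums were 41.8 ± 11.5 and 0.810 ± 0.169 TPM. No test is given, since with 3 hearts the smallest p of an exact sign-flip test is 0.25.

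Adrb1, the beta-1 receptor gene, was at 25.8, 21.8 and 23.0 TPM in hearts 1, 2 and 3, from 564, 489 and 539 counts. Its mean was 23.6 ± 2.07 TPM (22.4 without heart 1), above 68.7% of genes. The hearts lay close together, with a highest to lowest ratio of 1.19 against 1.90 for Adra1b. The gene (gene ID 11554) spans 56722199 to 56733113 on the plus strand of chromosome 19. The alpha-1 genes together exceeded Adrb1 by log2 ratios of 1.07, 0.86 and 0.45 (mean 0.79 ± 0.312, or 0.66 without heart 1). The mean was 1.26 without length scaling.

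Adrb3, the receptor through which noradrenaline drives fat breakdown and heat production in adipocytes, had 13, 8 and 26 counts. These correspond to 0.508, 0.300 and 0.947 TPM (mean 0.585 ± 0.330), with heart 3 highest. The gene (gene ID 11556) spans 27225776 to 27250616 on the minus strand of chromosome 8. Of 7 adipocyte markers 5 were detected. That is close to the 71.8% of all genes, so this count says nothing particular about adipocytes. The list summed to 486, 223 and 359 TPM in hearts 1, 2 and 3. Ucp1, the heat-producing protein of brown fat, was the highest at 207 ± 90.6 TPM. Retn was at 0 counts in heart 2, and Lep had 7, 4 and 7 counts. Both Adrb3 and the list were lowest in heart 2, but Adrb3 was highest in heart 3 and the list in heart 1. The part of adipose tissue in the Adrb3 counts was not tested.

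**Figure D2:**
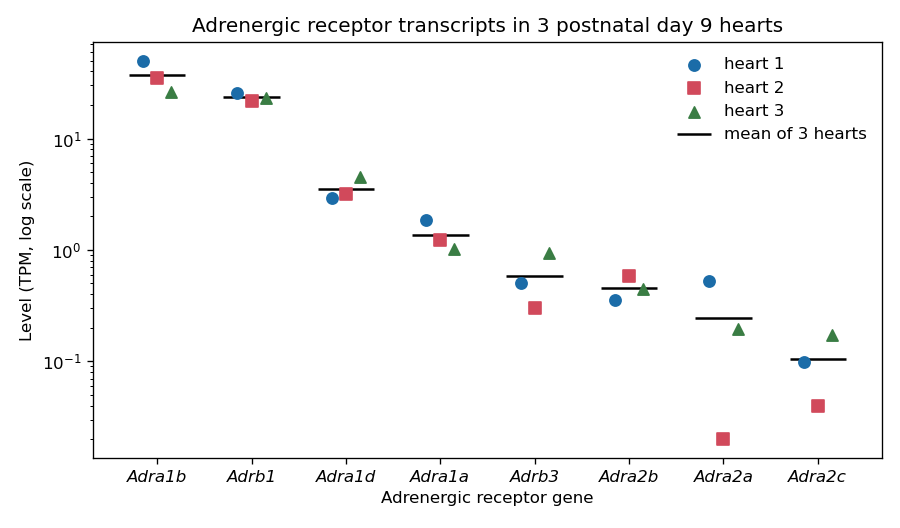
Level in TPM (log scale) of each receptor gene in hearts 1, 2 and 3, with the mean of 3 hearts as a bar. Adra1b and Adrb1 lie between 21.8 and 49.4 TPM, and the other genes lie at 4.50 TPM or below.

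Each gene was then compared with the next higher one by mean TPM, to ask which steps of the order exceed the spread between hearts. The order came from these same hearts, so the direction of each step was largely fixed beforehand. Counts of hearts in that direction, and values that do not overlap, are in part given by that choice. The edgeR quasi-likelihood test was used within hearts, and every gene of the table with at least 10 counts over the hearts was tested against the same reference gene, with Benjamini-Hochberg adjustment over those 15186 genes. Adra2c, with 9 counts in all, did not reach that minimum. Of 6 neighbouring pairs 4 passed the threshold of 0.05, and of 21 pairs of the other 7 members 18 did. Nearly any gene differs from a given reference in such a test, so these shares are read against the share of all genes that passed. All genes tested against one reference share its counts, and pooling the spread across them can make p too small. With each pair's own spread only, 1 of the 6 steps passed, that of Adra1d below Adrb1, and without heart 2 there were 2.

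The step from Adrb1 down to Adra1d was the clearest. The ratio of Adra1d to Adrb1 was -2.75 on the log2 scale, or 6.71-fold lower, in 3 of 3 hearts (edgeR adjusted p = 4.87e-13, SE 0.204, 95% interval -3.16 to -2.33). With the pair's own spread the ratio was -2.73 (edgeR quasi-Poisson fit, adjusted p = 0.00882). Of genes tested against Adrb1, 91.1% passed in either direction and 58.4% as lower. The values did not overlap: the lowest Adrb1 value was 21.8 TPM and the highest Adra1d value 4.50 TPM.

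Adrb1 and Adra1b were not separated by the test, although Adra1b was higher in 3 of 3 hearts. The log2 ratios of Adrb1 to Adra1b in hearts 1, 2 and 3 were -0.93, -0.69 and -0.18. The fitted ratio was -0.60 (SE 0.332, 95% interval -1.25 to 0.05, edgeR adjusted p = 0.0860), and 78.6% of genes tested against Adra1b passed, 61.4% as lower. In heart 3 the genes were nearly equal, at 26.0 TPM for Adra1b and 23.0 TPM for Adrb1. Adra1b was higher past the threshold when lengths of the longest GENCODE transcripts were used (-0.82, edgeR adjusted p = 0.0190). The same held with no length correction (-0.99, edgeR adjusted p = 0.00437). It also passed in the fit without the heart as a block (-0.64, edgeR adjusted p = 0.0406) and in the DESeq2 Wald test (-0.60, adjusted p = 0.0417). It did not without heart 1, 2 or 3 (-0.43, -0.55 and -0.81, edgeR adjusted p = 0.194, 0.594 and 0.0689). Nor did it with the pair's own spread (-0.64, edgeR quasi-Poisson fit, adjusted p = 0.128). Filters of 1 count and of 1 CPM in every heart gave no call either (edgeR adjusted p = 0.0762 and 0.0926).

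The order of Adra1d and Adra1a depended on gene length. With lengths implied by the authors' values, Adra1a was below Adra1d by -1.40 (SE 0.313, 95% interval -2.01 to -0.78, edgeR adjusted p = 1.07e-05, 3 of 3 hearts), against 89.1% of genes that passed, 20.2% as lower. With longest GENCODE transcript lengths the ratio was -0.33 (edgeR adjusted p = 0.303). With no length correction it turned to 0.84 (edgeR adjusted p = 0.00759).

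Adrb3 was below Adra1a by -1.25 (SE 0.383, 95% interval -2.00 to -0.50, edgeR adjusted p = 0.00131, 3 of 3 hearts), against 92.1% of genes, 12.4% as lower. The difference grew to -2.58 with longest GENCODE transcript lengths and to -3.19 with none. The values came close in heart 3, at 0.947 TPM for Adrb3 and 1.02 TPM for Adra1a, and without heart 2 the call was lost (-0.98, edgeR adjusted p = 0.109).

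Adra2b and Adrb3 were not separated (-0.27, 95% interval -1.71 to 1.16, edgeR adjusted p = 0.730, lower in 2 of 3 hearts), against 85.6% of genes, 2.82% as lower. Adra2a was below Adra2b by -1.09 (SE 0.541, 95% interval -2.15 to -0.03, edgeR adjusted p = 0.0476, lower in 2 of 3 hearts), against 90.5% of genes, 3.58% as lower. Heart 2 had 1 count of Adra2a, and without that heart the call was lost (-0.25, edgeR adjusted p = 0.718), as it was without heart 3 (-1.11, edgeR adjusted p = 0.233). Without heart 1 the ratio was -2.22 (edgeR adjusted p = 6.45e-05). Where genes with any count were tested, Adra2c was not separated from Adra2a (-0.91, 95% interval -3.97 to 2.14, edgeR adjusted p = 0.607).

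**Figure D3:**
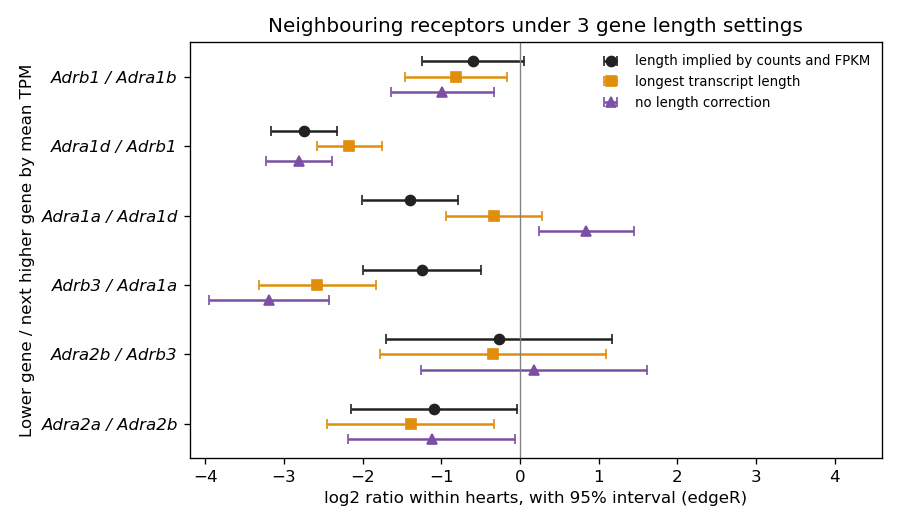
Log2 ratio of each receptor gene to the next higher one by mean TPM, with 95% intervals from edgeR, under 3 gene length settings. The ratio of Adra1d to Adrb1 lies between -2.81 and -2.17 in all 3 settings, and that of Adra1a to Adra1d runs from -1.40 to 0.84.

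Variation between hearts was examined with edgeR's goodness of fit statistic, which compares each gene with the spread usual at its level. None of the 7 members tested passed after adjustment over 15187 genes, against a background of 1.8% of genes (274). Before adjustment the threshold of 0.05 was passed by 894 genes, among them Adra1b (edgeR adjusted p = 0.109) and Adra2a (edgeR adjusted p = 0.226). Adra1b passed where only genes with 1 CPM or more in every heart were tested (edgeR adjusted p = 0.0349). Adra2a passed with 1 dispersion common to all genes (edgeR adjusted p = 0.0106).

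The SD of log2 values over hearts was 0.43 for Adra1b, larger than in 98.2% of the 2433 genes of like level (within 0.5 on the log2 scale), whose median was 0.10. For Adrb1 it was 0.12, larger than in 58.4% of genes of like level. Adra1a and Adra2a also lay high, above 92.3% and 94.4% of genes of like level, with SDs of 0.40 and 1.42. Adra1d, Adrb3, Adra2b and Adra2c lay above 77.1%, 84.8%, 44.4% and 61.9%. Heart 1 had the highest value of Adra1b and also the airway transcripts. The spread of Adra1b did not pass without heart 1, 2 or 3 either (edgeR adjusted p = 0.828, 0.209 and 1.0). The part of the airway material in the Adra1b values was not tested.

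**Figure D4:**
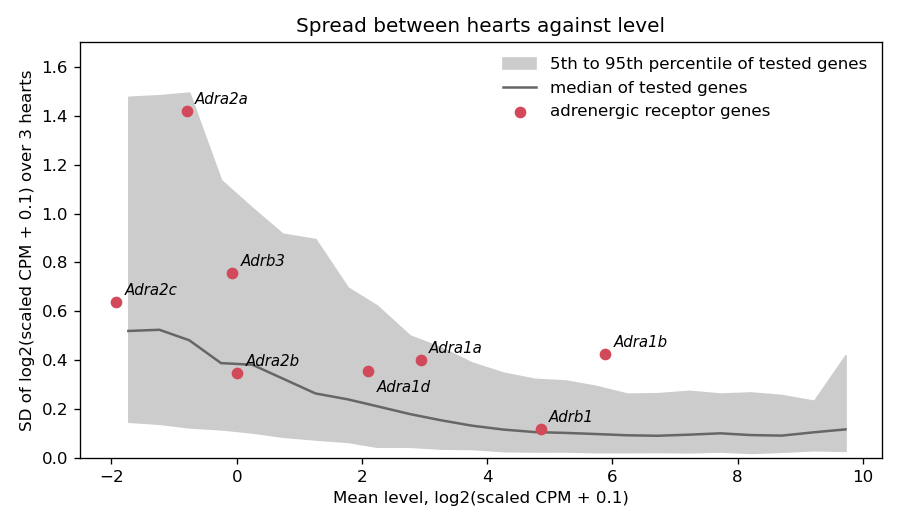
SD of log2(scaled CPM + 0.1) over 3 hearts against mean level for the receptor genes (points), with the 5th to 95th percentile band and the median of tested genes. Adra1b, at 0.43, lies above the band, and Adrb1, at 0.12, lies near the median line.

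Genes whose levels over the 3 hearts were most like those of a receptor were named by the root mean square difference of log2(TPM + 0.1). For Adrb1 these were Gatb, Cryzl2 and Lyrm4 (0.0132, 0.0205 and 0.0262), and 707 genes lay within 0.2. For Adra1b they were Tmem176a, Mical3 and Msln (0.113, 0.121 and 0.128), with 22 genes within 0.2. For Adra1a they were Ccdc92, Hap1 and Wwc1 (0.0439, 0.0677 and 0.0723), with 42 genes within 0.2. Likeness over 3 hearts is mostly likeness of level.

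Other receptors for small amine transmitters were measured for comparison. Of 23 listed, 18 had a row, 3 were detected, against 71.8% of all genes, and the median was 0.127 TPM. Chrm2, the muscarinic receptor by which the vagus nerve slows the heart, was at 38.3 ± 5.84 TPM, beside 36.9 TPM for Adra1b and 23.6 TPM for Adrb1. Drd2, a dopamine receptor, was at 2.71 ± 0.957 TPM and Chrm3 at 0.839 ± 0.153 TPM. The highest of those not detected was Htr2a, a serotonin receptor, at 0.406 ± 0.119 TPM. None of the 10 tested varied between hearts. With 1.8% of all genes called, no call is usual in so short a list, here and in the lists below.

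Of 11 genes for G protein alpha subunits, which carry the receptors' signal, 10 were detected, against 71.8% of all genes. The median was 31.1 TPM, and none varied between hearts, against 1.8% of all genes. Gnas, the Gs subunit of the beta receptors, was at 2373 ± 59.3 TPM. Gnai2, a Gi subunit, was at 544 ± 16.9 TPM. Gna12 and the Gq family subunit Gna11 were at 71.8 ± 4.91 and 64.4 ± 3.53 TPM. These 4 genes exceeded Adra1b and Adrb1 in every heart, as a comparison of levels per length.

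Of 25 genes of the cyclic AMP arm, 24 were detected, against 71.8% of all genes. Its highest members were targets of protein kinase A: Tnni3, the cardiac troponin inhibitory subunit, at 7086 ± 313 TPM, Pln, the brake on the calcium pump, at 4237 ± 360 TPM, and Mybpc3, a thick filament protein, at 1533 ± 122 TPM. The regulatory subunit Prkar1a followed at 430 ± 47.2 TPM. Prkar2b, another regulatory subunit of the kinase, was the only one of 24 tested that varied between hearts (edgeR adjusted p = 0.00539), against 1.8% of all genes. It had 699, 314 and 556 counts. The call was lost without heart 2 (edgeR adjusted p = 1.0). Prkar2b was lowest in heart 2, as were the summed adipocyte markers, of which 4 of 6 tested varied as well. The part of adipose tissue in Prkar2b was not tested.

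The Gq arm, downstream of alpha-1 receptors, had 14 of 15 genes detected, against 71.8% of all genes. Its median was 9.43 TPM, and that of the cyclic AMP arm was 27.3 TPM. The lists differ in kind, since only the cyclic AMP list includes contractile proteins such as Tnni3. The phospholipases Plcb4 and Plcb3 were at 43.5 ± 2.83 and 17.6 ± 1.58 TPM. The kinase Prkce was at 20.8 ± 0.454 TPM and the calcium release channel Itpr1 at 16.9 ± 3.29 TPM. None of the 15 varied between hearts, against 1.8% of all genes.

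Genes that switch receptors off were all detected, 11 of 11 with a row, against 71.8% of all genes. Rgs3 and Rgs2, which shorten G protein signals, were at 63.0 ± 2.24 and 37.5 ± 8.19 TPM. The receptor kinases Grk2 and Grk5, which phosphorylate active receptors, were at 48.5 ± 0.847 and 28.6 ± 3.24 TPM. Scaffold genes were also all detected, 9 of 9, with Gipc1, Akap12, Dlg1 and Gopc at 64.0 ± 1.16, 51.8 ± 4.43, 30.5 ± 3.00 and 18.0 ± 2.01 TPM. None of these 20 genes varied between hearts, against 1.8% of all genes.

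Of 15 genes for making, moving and breaking down catecholamines, 8 were detected, against 71.8% of all genes. The median of the 15 was 3.80 TPM. Ddc, a decarboxylase of the synthetic route, was at 49.9 ± 18.2 TPM, and Maob and Cyb561 were at 17.5 ± 3.55 and 8.64 ± 0.694 TPM. Ddc was the only one of 13 tested that varied between hearts (edgeR adjusted p = 0.0263), against 1.8% of all genes. Its counts were 1182, 807 and 615. The call was lost without heart 1, 2 or 3 (edgeR adjusted p = 0.817, 0.0948 and 0.683) and with a common dispersion (edgeR adjusted p = 0.0946). Heart 1 was highest and heart 3 lowest, as for Adra1b. Of the enzymes that define noradrenergic neurons, Dbh was detected at 6.16 ± 0.115 TPM, with 124, 128 and 129 counts. Th was not, with 14, 16 and 11 counts, and the noradrenaline transporter Slc6a2 was at 0 counts in heart 1. Of 9 sympathetic neuron markers 5 were detected, and none of 8 tested varied. Their sum was 121, 93.9 and 99.98 TPM in hearts 1, 2 and 3, most of it from Hand2 (79.3 ± 14.8 TPM), which heart cells also express. Adra2a, with 18, 1 and 7 counts, was also highest in heart 1 and lowest in heart 2. Of the detected markers only Hand2 had that order. Stmn2 and Snap25 were lowest in heart 1, Prph was highest in heart 3 and Dbh differed little. None of 4 adrenal chromaffin markers was detected. The part of nerve tissue in the Adra2a counts was not tested.

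**Figure D5:**
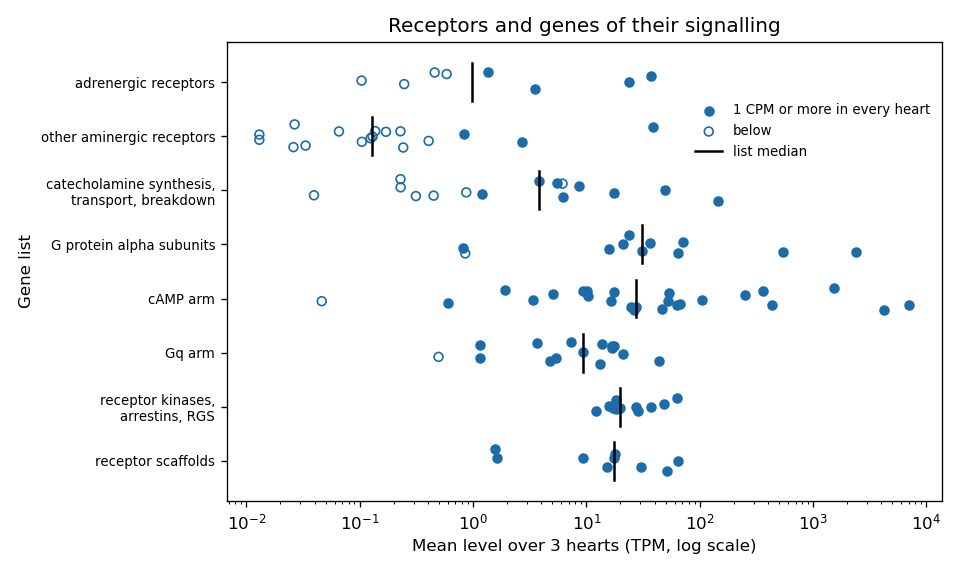
Mean level over 3 hearts (TPM, log scale) of each gene in 8 lists, filled where the gene was detected, with list medians as bars. The median of the adrenergic receptors is 0.976 TPM and that of the G protein alpha subunits 31.1 TPM.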

How the data were processed

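RNA was sequenced from 3 wild-type hearts from DNBSEQ libraries, per the labels. The deposited table holds expected counts (estimated counts per gene and heart, within 0.005 of a whole number in every heart for 84.5% of genes) and the authors' FPKM. Per the submitters' processing notes, HISAT and GRCm38.p6 were used, with no version or role recorded. For the counting tool and the annotation, nothing is given in the sources used here. A line without values and 2 columns of means were not used.

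FPKM were rescaled to TPM. Expected counts were rounded for edgeR 4.0.16 (R 4.3.3), with offsets of TMM-scaled library size times implied gene length and the heart as a block. The goodness of fit test used the trended dispersion. Both were run on simulated data with known differences, with a spread set from the level of a gene and not from these hearts. The outcome is not given here, so that run lends no support to the p-values above. DESeq2 1.42.0, other lengths, filters and scalings and leaving out each heart were tried. Sequences were read from GENCODE M21 transcripts on GRCm38 and aligned with Biopython 1.88. The table lists Adra1b on the plus strand, GENCODE on the minus strand, which is given here.

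Every member was named, with the 4 highest genes and the variable genes of each pathway list, list markers beside a member, and the 3 genes most like Adrb1, Adra1b and Adra1a. Some list genes that this rule names are not reported here. Members and lists were chosen with earlier results of these data known.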

Additional observations from a re-analysis of the deposited data

How the results depend on the processing

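Of the steps between neighbouring receptors, Adra1d below Adrb1 held in all 11 alternatives (-2.96 to -2.17, largest adjusted p = 0.00882). Adrb1 below Adra1b passed with the DESeq2 Wald test (-0.60), without the replicate block (-0.64), without a length correction (-0.99) and with longest transcripts (-0.82); leaving out a heart gave -0.81 to -0.43. Adra1a against Adra1d lost its call with its own spread (-1.39) and longest transcripts (-0.33) and reversed without a length correction (0.84); without a heart it ranged from -1.76 to -1.03. Adrb3 below Adra1a lost its call with its own spread (-1.20) and without heart 2; it ranged from -1.92 to -0.85 without a heart and from -3.19 to -0.85 over all alternatives. Adra2b against Adrb3, not called in any setting run, reversed without a length correction (0.18) and ranged from -0.83 to 0.19 without a heart, the last without heart 3. Adra2a below Adra2b lost its call with no filter (-1.13), DESeq2 (-1.40), no replicate block (-0.91) and its own spread (-0.91), and ranged from -2.22 to -0.25 without a heart. The own-spread fit was chosen after seeing the data. Of 6 steps, 4 passed in the reported fit, 1 with its own spread and 2 to 4 without a heart. In the order by CPM, 4 of 8 genes kept their place. Detection ranged from 4 to 5 of 8 members over the settings tried. Genes that varied numbered 274, and 413 with a common dispersion, when 1 member passed, as with the filter of 1 CPM; without a heart there were 116 to 148 such genes, where fewer hearts were tested, and 0 members. The alpha-1 sum over Adrb1 was 1.26 in CPM. No second group exists, so the block pairs genes within a heart. Depth limits the alpha-2 genes and Adrb3, with 50 counts or fewer each over the hearts.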

Other observations

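Promoters (300 bases around a RefSeq start, GRCm38.p6) were listed for 5 of the 8 receptor genes, and Adra1b has a pair of them. The start of Adra1b farther upstream had 42.3% G and C and 3 CpG pairs, and the start nearer to the coding exons had 71.3% and 28 CpG pairs. Adrb1 had 72.3% and 28 CpG pairs. Adra2a and Adra2b, which were not called detected, had 68.7% with 28 and 68.0% with 29. Adra2c had 51.3% and 7 CpG pairs, close to the medians of 52.7% and 7 over 32851 promoters. The motif GGGCGG, searched on both strands, occurred in the Adrb1, Adra2a and Adra2b promoters and in the downstream promoter of Adra1b. Of all promoters, 35.7% hold it. Other motifs were searched as well. TATAAA occurred in the Adra2a promoter and CACGTG in those of Adra2a and Adra2c, and 13.6% and 7.15% of all promoters hold them. TGACGTCA and AGATAA occurred in none of the listed promoters. Base composition was not tested against level, as there are only 6 promoters. The Adrb1 promoter and the downstream one of Adra1b had the highest shares of G and C. Adra2c, the lowest gene by mean TPM, had a smaller share than Adra2a and Adra2b. The upstream promoter of Adra1b had the smallest share of all. Which start of Adra1b the transcripts came from was not tested.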
